A study of Bos taurus with 6 samples.

Results

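The bovine mammary gland secretes 4 caseins and 2 major whey proteins, and their genes are described here in lactating heifers. The members were taken by Ensembl gene identifier: CSN1S1 (ENSBTAG00000007695), CSN2 (ENSBTAG00000002632), CSN1S2 (ENSBTAG00000005005), CSN3 (ENSBTAG00000039787), PAEP (ENSBTAG00000014678) and LALBA (ENSBTAG00000005859). They are 6 of 24579 genes in the count tables, and all 6 passed the filter on low counts that left 14724 genes for testing. RNA sequencing was done on mammary biopsies taken on day 21 of the first lactation in summer 2016 from 6 Holstein heifers born in 2014. The dams of heifers 9196, 9203 and 9204 had shade only, and these offspring are called in utero heat stressed (IUHT-H, n = 3). The dams of heifers 9202, 9214 and 9223 were cooled with fans and water soakers beside the shade, and their offspring are called in utero cooled (IUCL-H, n = 3). The maternal treatment covered the last 6 to 7 weeks of gestation, and from birth onward all heifers shared the same housing and management. The groups were therefore set apart by the climate of the dam and not by any treatment of the heifer at the time of biopsy. The study names as a limit that many in utero heat stressed heifers were culled, which left fewer eligible animals. Each heifer gave 1 library, so the spread between heifers includes the animal, the site of the biopsy and the library.

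Caseins are phosphoproteins that secretory epithelial cells package with calcium phosphate into micelles, the particles that carry most of the protein and mineral of milk. Alpha-S1-casein (CSN1S1), beta-casein (CSN2) and alpha-S2-casein (CSN1S2) bind calcium, whereas kappa-casein (CSN3) is glycosylated, sits at the micelle surface and keeps the particle in suspension. The whey proteins stay in solution. Beta-lactoglobulin (PAEP) is a lipocalin that binds small hydrophobic molecules, and alpha-lactalbumin (LALBA) is the regulatory subunit of lactose synthase, so that it sets lactose synthesis and with it the water drawn into milk. Transcription of these genes in alveolar cells is driven by prolactin through STAT5, with glucocorticoid hormones and insulin. In the RefSeq gene table of the bovine assembly ARS-UCD2.0, the caseins lie in 1 cluster in the order CSN1S1, CSN2, CSN1S2 and CSN3, with HSTN and STATH between CSN2 and CSN1S2, and PRR27 and ODAM between CSN1S2 and CSN3. PAEP and LALBA lie on other chromosomes.

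The deposited values are raw read counts per gene. Totals ran from 75754791 to 84969285 for the IUHT-H libraries, all below the IUCL-H libraries with 91696849 to 101361294. Within a group, the chi-square per degree of freedom between the counts of any pair of libraries was at least 51.7, where a second count of the same library would give about 1. Set against the labelled tissue, lactating mammary gland, the members were the 6 genes with the most counts in each of the 6 heifers. The gene in place 7 was ENSBTAG00000013417 in every heifer, with 0.974% to 1.34% of the counts, and LALBA, the lowest member, had 2.75 to 3.9 times as many counts as it. Of 51 genes listed as markers of mammary cell types, only CLDN3 and JCHAIN could be matched to an identifier, because the count tables carry no gene names.

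The 6 genes together took 65.1%, 70.1% and 69.8% of all counts in IUCL-H 9202, 9214 and 9223 against 63.7%, 62.6% and 72.4% in IUHT-H 9196, 9203 and 9204. The highest and the lowest value of the study were thus both in IUHT-H. The mean share was 66.2% ± 5.35 in IUHT-H against 68.3% ± 2.79 in IUCL-H (SD, n = 3 per group), and the difference was -2.05 percentage points (exact permutation test, two-sided, P = 0.7, adjusted P = 0.93 over 7 shares). With 3 against 3 heifers this exact test cannot go below P = 0.1. Each heifer moved this difference by more than 1.5 times when left out, from -0.253 points without IUHT-H 9203 and -0.774 without IUHT-H 9196 to -5.13 without IUHT-H 9204. It was -3.66, -1.17 and -1.32 points without IUCL-H 9202, 9214 and 9223. Counting error was small beside the spread between heifers, because the 95% Clopper-Pearson interval of each share extended at most 0.0092 percentage points to either side. This interval covers counting error only. In bulk tissue, fewer secretory cells and less milk protein mRNA per cell cannot be told apart. The rest of the transcriptome was read from the remaining 23458119 counts in IUHT-H 9204 and up to 32029021 counts in IUCL-H 9202.

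Caseins made up most of this share, with 55%, 56.4% and 58.2% of the counts in IUCL-H 9202, 9214 and 9223 against 52%, 51.2% and 58.7% in IUHT-H 9196, 9203 and 9204. Beta-casein had the most counts of all genes in every heifer. CSN2 took 22.2%, 23.6% and 24.9% of the counts in IUCL-H 9202, 9214 and 9223 against 21.4%, 20.3% and 24.8% in IUHT-H 9196, 9203 and 9204. IUHT-H 9204 lay within the IUCL-H values, and the other two IUHT-H lay below all of them. The same arrangement was seen for CSN1S1, next in every heifer, with 19.3%, 20.4% and 19.5% in IUCL-H against 17.2%, 17.5% and 19.9% in IUHT-H, listed in the same order of heifers. CSN1S1 had the lowest P-value of the 7 shares, with a mean of 18.2% ± 1.51 in IUHT-H against 19.7% ± 0.574 in IUCL-H (SD, n = 3 per group, exact permutation test, P = 0.3, adjusted P = 0.93). Its difference of -1.53 percentage points was -2.39 without IUHT-H 9204 and -1.01 without IUHT-H 9196.

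Alpha-S2-casein was set apart by 1 heifer. CSN1S2 took 6.16% of the counts in IUCL-H 9214, whereas the other 5 heifers lay between 7.46% and 8.51%. Kappa-casein varied less. CSN3 took 5.22%, 6.26% and 5.27% in IUCL-H 9202, 9214 and 9223 against 5.29%, 5.87% and 5.74% in IUHT-H 9196, 9203 and 9204, and the IUHT-H values lay inside the range of IUCL-H. Group means were 7.93% ± 0.423 and 7.64% ± 1.29 for CSN1S2 and 5.63% ± 0.305 and 5.58% ± 0.584 for CSN3 in IUHT-H and IUCL-H (SD, n = 3 per group). Neither difference was larger than the SD within a group.

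Among the whey protein genes, PAEP took 6.36%, 9.47% and 7.41% of the counts in IUCL-H 9202, 9214 and 9223 against 7.98%, 8.35% and 9.5% in IUHT-H 9196, 9203 and 9204. The lowest value was in IUCL-H 9202, and the highest values of the groups were nearly equal. PAEP was one of 3 genes, with CSN1S2 and CSN3, that had a higher mean share in IUHT-H, with 8.61% ± 0.791 against 7.75% ± 1.58 in IUCL-H (SD, n = 3 per group, exact permutation test, P = 0.4, adjusted P = 0.93). The PAEP difference of 0.863 percentage points was 0.169 without IUCL-H 9202, 1.73 without IUCL-H 9214 and 0.42 without IUHT-H 9204. LALBA took 3.68%, 4.17% and 4.13% in IUCL-H against 3.75%, 3.12% and 4.18% in IUHT-H, with IUHT-H 9203 below the other 5 heifers. By number of counts, CSN2 was in place 1, CSN1S1 in place 2 and LALBA in place 6 in all 6 heifers. Between them the order changed, with PAEP in place 3 or 4, CSN1S2 in places 3 to 5 and CSN3 in place 4 or 5. CSN1S2 was ahead of PAEP in IUCL-H 9202 and 9223 and IUHT-H 9196, and behind it in the other 3 heifers. The order is one of read counts and not of mRNA molecules, because transcript lengths were not used here.

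**Figure D1:**
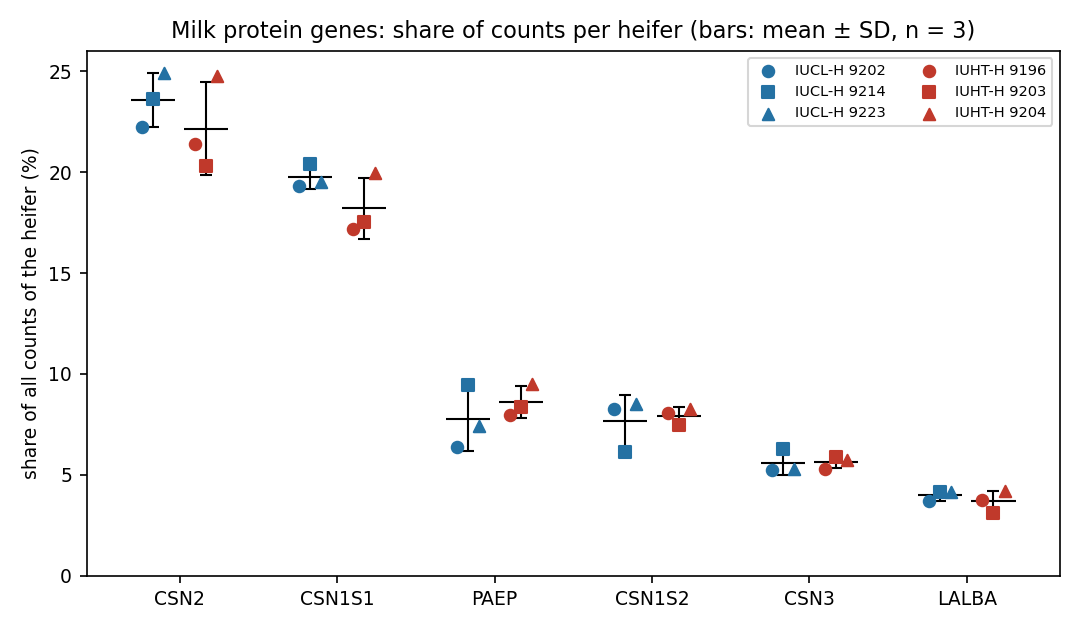
Share of all counts of a heifer (y axis, percent) taken by each milk protein gene (x axis), with 1 point per heifer, blue for IUCL-H and red for IUHT-H, and bars for the mean ± SD of 3 heifers. CSN2 and CSN1S1 stand far above the other 4 genes in every heifer, IUHT-H 9204 is the red point next to the IUCL-H values of CSN1S1 and CSN2, and the low blue point of CSN1S2 is IUCL-H 9214 at 6.16%.

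Ratios between members were compared next, because a ratio of counts within a library does not depend on the size of the library or on normalization. Across the 15 pairs, the highest ratio among the 6 heifers was between 1.11 and 2 times the lowest, with a median of 1.45 times. The pair of CSN1S1 and CSN2, neighbours in the casein cluster, was the steadiest. Their count ratio was 0.869, 0.864 and 0.783 in IUCL-H 9202, 9214 and 9223 against 0.803, 0.862 and 0.806 in IUHT-H 9196, 9203 and 9204. CSN2 and LALBA, which lie on different chromosomes, came next, with ratios from 5.67 in IUCL-H 9214 to 6.51 in IUHT-H 9203. A steady ratio was therefore not limited to neighbours. CSN1S2, in the same cluster as CSN2, had a CSN2 to CSN1S2 ratio between 2.65 and 2.99 in 5 heifers and of 3.84 in IUCL-H 9214.

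The widest ratio was that of CSN1S2 to PAEP. It was 1.3, 0.65 and 1.15 in IUCL-H 9202, 9214 and 9223 against 1.01, 0.893 and 0.87 in IUHT-H 9196, 9203 and 9204. Both extremes were in IUCL-H, and the IUHT-H lay between them. Without IUCL-H 9214 the highest was 1.49 times the lowest, and without IUCL-H 9202 it was 1.77 times. Counting error of a member was between 0.0203% and 0.0632% of its count, which does not include the error of biopsy or library preparation.

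**Figure D2:**
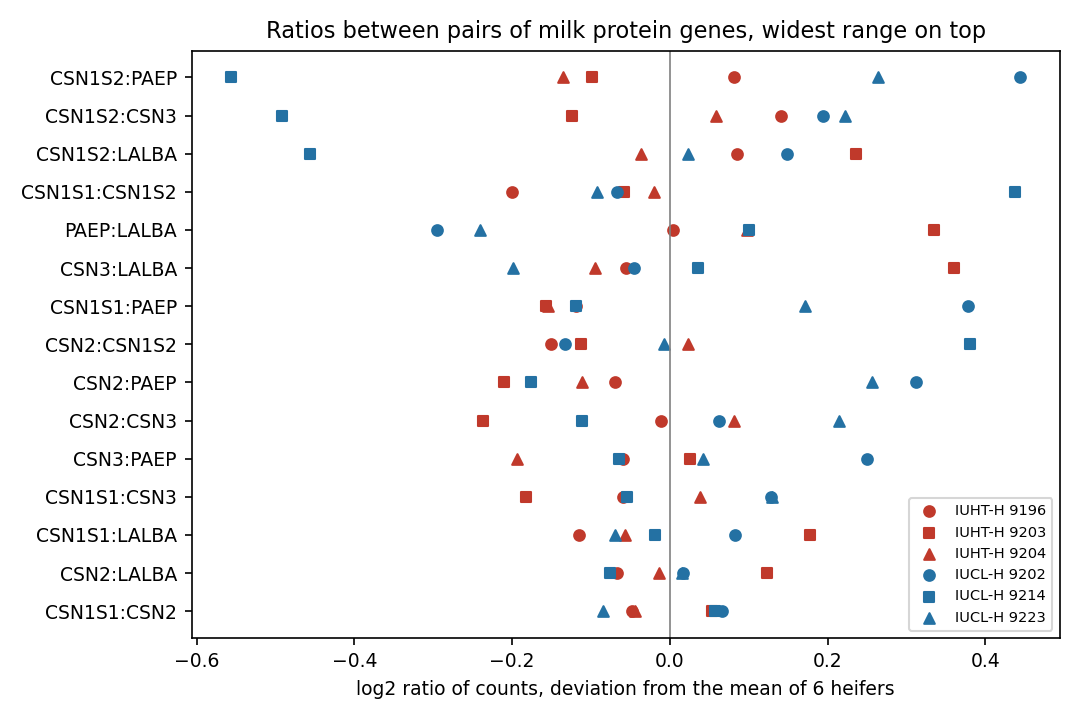
Log2 ratio of counts for each of the 15 pairs of milk protein genes, as the deviation from the mean of the 6 heifers (x axis), with pairs on the y axis ordered by their range and the widest on top. Points are heifers, blue for IUCL-H and red for IUHT-H. CSN1S1 to CSN2 at the bottom spans 1.11 times and CSN1S2 to PAEP at the top spans 2 times, and the blue points reach both ends of the top pair.

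In 3 of the 6 genes, 1 heifer was the lowest in every ratio of that gene to the other members, and it was a different heifer for each gene. For CSN1S2 it was IUCL-H 9214 in 5 of 5 ratios. This heifer gave CSN1S2 8.79% of the summed counts of the members, against 11.4% to 12.7% in the others. For PAEP it was IUCL-H 9202 in 5 of 5 ratios, with 9.77% of the sum against 10.6% to 13.5%. For LALBA it was IUHT-H 9203 in 5 of 5 ratios, with 4.99% of the sum against 5.65% to 5.95%. CSN1S1, CSN2 and CSN3 had no such heifer, although IUCL-H 9223 was lowest in 4 of the 5 ratios of CSN3. The 5 ratios of a gene all contain its own count, so 5 of 5 is not 5 separate observations. These heifers were noticed in the data and no test was applied to them.

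**Figure D3:**
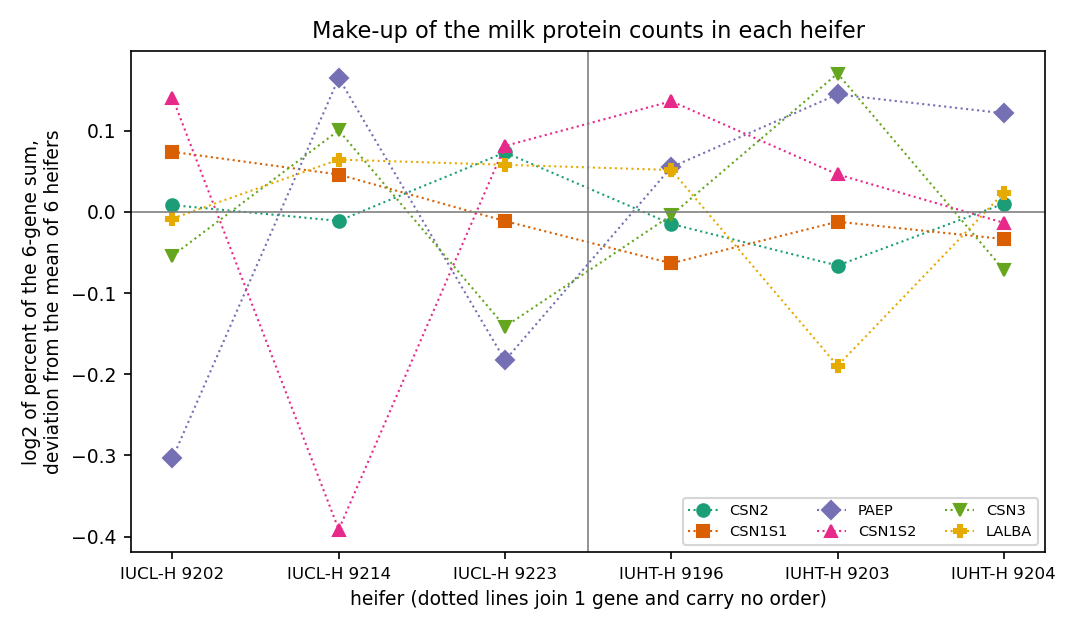
Make-up of the milk protein counts in each heifer (x axis), as the log2 of the percent of the 6-gene sum in deviation from the mean of the 6 heifers (y axis), with 1 marker per gene and the IUCL-H to the left of the vertical line. CSN1S2 drops in IUCL-H 9214, PAEP in IUCL-H 9202 and LALBA in IUHT-H 9203, while CSN1S1 and CSN2 stay close to 0 in every heifer. CSN1S1 and CSN2 make up most of the sum, which in part holds them near 0 on this scale.

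Between the groups, the 15 pair ratios and the ratio of summed caseins to summed whey protein genes all overlapped. The casein to whey ratio was 5.48, 4.14 and 5.05 in IUCL-H 9202, 9214 and 9223 against 4.43, 4.46 and 4.29 in IUHT-H 9196, 9203 and 9204. The 3 IUHT-H values were close together and lay inside the range of IUCL-H. On the log2 scale the difference was -0.14 (SD within groups 0.15, exact permutation test, P = 0.4, adjusted P = 0.87 over 16 ratios). It was -0.057 without IUCL-H 9202 and -0.26 without IUCL-H 9214. The largest mean differences, both with overlap, were in the log2 ratios of PAEP to LALBA and of CSN1S1 to PAEP. PAEP to LALBA was 0.29 higher in IUHT-H (exact permutation test, P = 0.3, adjusted P = 0.87). CSN1S1 to PAEP was 1.08 ± 0.022 in IUHT-H against 1.37 ± 0.25 in IUCL-H (mean ± SD of 3 heifers each), which differ by -0.29 (exact permutation test, P = 0.2, adjusted P = 0.87). Without IUCL-H 9202 this difference was -0.17, and without IUCL-H 9214 it was -0.42.

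As a part of the 6-gene sum, a quantity added after the data were seen, CSN1S1 was lower in all 3 IUHT-H than in all 3 IUCL-H. It made up 29.7%, 29.1% and 27.98% of the sum in IUCL-H 9202, 9214 and 9223 against 27%, 27.97% and 27.6% in IUHT-H 9196, 9203 and 9204. The gap between IUHT-H 9203 and IUCL-H 9223 was narrow. The means were 27.5% ± 0.49 and 28.9% ± 0.868 (SD, n = 3 per group), a difference of -1.42 percentage points with the smallest P-value the design allows (exact permutation test, P = 0.1, adjusted P = 0.6 over 6 genes). This gene was the only one of the 6 without overlap on this scale, and it does not pass the adjustment. In normalized counts, a different scale described below, the groups did not overlap in 892 of the 14724 genes tested (6.06%). The 6 parts add up to the whole sum, so they are not independent of each other. A count of 1 among 6 such parts does not set CSN1S1 apart from that background.

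For comparison with all other genes, counts were scaled with edgeR's TMM method (trimmed mean of M-values), which sets libraries against each other after trimming the genes that differ most, and are given as CPM, counts scaled to the adjusted size of the library. On this scale, all 6 members had their highest value in IUHT-H 9204. This heifer had the lowest TMM factor, 0.812 against 0.891 to 1.19 in the others, which raises its CPM relative to its share. By share of counts, only PAEP and LALBA were highest in it. CSN2 had 202588, 265039 and 275540 CPM in IUCL-H 9202, 9214 and 9223 against 180012, 173527 and 304982 CPM in IUHT-H 9196, 9203 and 9204. CSN1S1 had 176079, 228997 and 215793 CPM in IUCL-H against 144549, 149602 and 245735 CPM in IUHT-H, in the same order. In both genes the IUHT-H lay on either side of the IUCL-H, 2 below and 1 above. LALBA followed with 33537, 46768 and 45655 CPM in IUCL-H against 31566, 26673 and 51548 CPM in IUHT-H.

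The lowest values were in IUHT-H 9203 for CSN2, CSN1S2 and LALBA, in IUHT-H 9196 for CSN1S1 and CSN3, and in IUCL-H 9202 for PAEP. CSN1S2 of IUCL-H 9214, which was low within the milk protein counts, had 69110 CPM and lay above both IUHT-H 9196 (67850 CPM) and IUHT-H 9203 (63667 CPM). PAEP had the widest range, from 57949 CPM in IUCL-H 9202 to 116992 CPM in IUHT-H 9204, or 2.02 times. CSN3 had the narrowest, from 44486 CPM in IUHT-H 9196 to 70690 CPM in IUHT-H 9204, or 1.59 times. The SD within groups was 0.31 to 0.44 on the log2 scale for the 6 genes. The median over the 14724 genes tested was 0.23, and over the 22 genes with a mean of at least 1000 CPM, which include the members, it was 0.36.

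**Figure D4:**
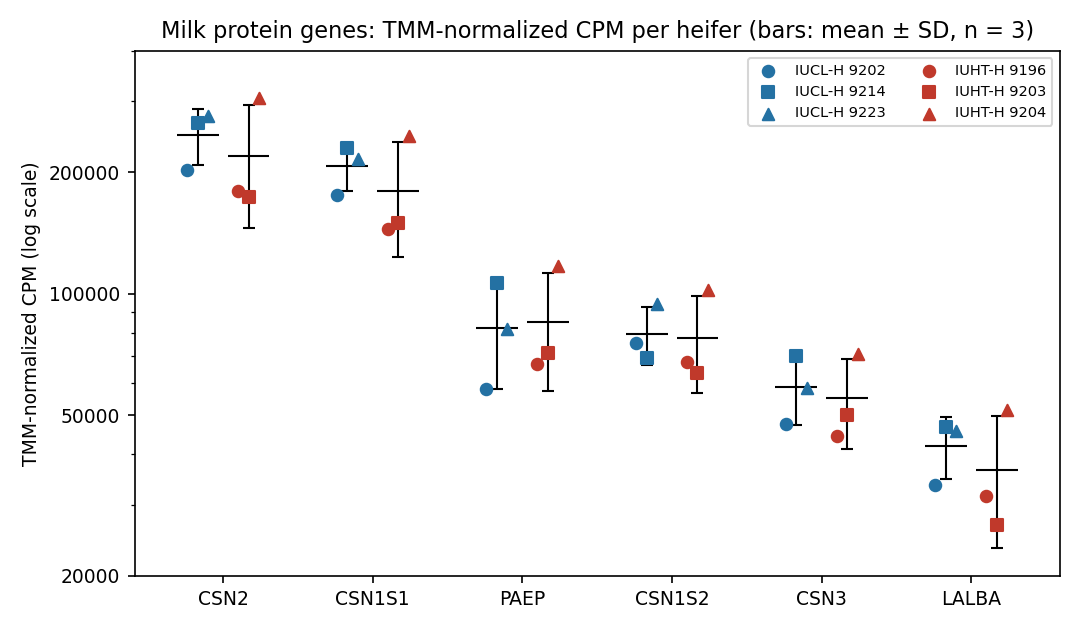
TMM-normalized CPM of each milk protein gene (y axis, log scale) by gene (x axis), with 1 point per heifer, blue for IUCL-H and red for IUHT-H, and bars for the mean ± SD of 3 heifers. The top red point of each gene is IUHT-H 9204, and the groups overlap in all 6 genes.

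The group difference was tested across all genes by the quasi-likelihood method of edgeR, and a gene was called at an unadjusted P of at most 0.01, the study's cut-off. None of the 6 members was called or had a P-value below 0.05, also not with the likelihood ratio test, the exact test or DESeq2. Over all genes 63 of 14724 (0.428%) were called, so 0 of 6 is near that background. After adjustment, 0 genes (0%) stayed below 0.05 in the quasi-likelihood test, in which 374 had an unadjusted P below 0.05, whereas the likelihood ratio test, the exact test and DESeq2 gave 11, 9 and 16 such genes. The groups did not overlap in 892 genes (6.06%), and in none of the members. The median log2 fold change of the 6 members was -0.13, and that of all genes tested was 0.0028.

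For CSN2 the log2 fold change of IUHT-H relative to IUCL-H was -0.17 (95% interval -1.19 to 0.84). The mean CPM ± SD of 3 heifers was 219507 ± 74095 for IUHT-H against 247722 ± 39439 for IUCL-H. For CSN1S1 it was -0.20 (interval -1.17 to 0.77), for CSN1S2 -0.032 (interval -0.86 to 0.80) and for CSN3 -0.091 (interval -0.89 to 0.71). Among the whey protein genes it was 0.053 (interval -0.88 to 0.99) for PAEP and -0.20 (interval -1.02 to 0.63) for LALBA. Adjusted p-values were 0.999 for all 6 genes in edgeR's quasi-likelihood test. The intervals reach from 0.437 to 1.99 times the level of IUCL-H, so these heifers do not show that the groups are alike.

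The fold changes depended on single heifers. Without IUHT-H 9204, all 6 log2 fold changes were below 0, from -0.53 for LALBA to -0.25 for PAEP, with P-values of at least 0.14 in edgeR's quasi-likelihood test. Without IUCL-H 9202 they were also all below 0, from -0.34 to -0.067. Without IUCL-H 9214 that of PAEP was 0.28, and without IUHT-H 9196 that of CSN1S2, CSN3 and PAEP was above 0. Scaling by the library total alone moved the median log2 fold change of all genes to 0.13 and that of the members to -0.038, with CSN1S2 at 0.053 and CSN3 at 0.013. Leaving the 6 genes out of the totals and of the TMM factors changed the log2 fold changes little, to -0.18 for CSN2 and 0.051 for PAEP.

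**Figure D5:**
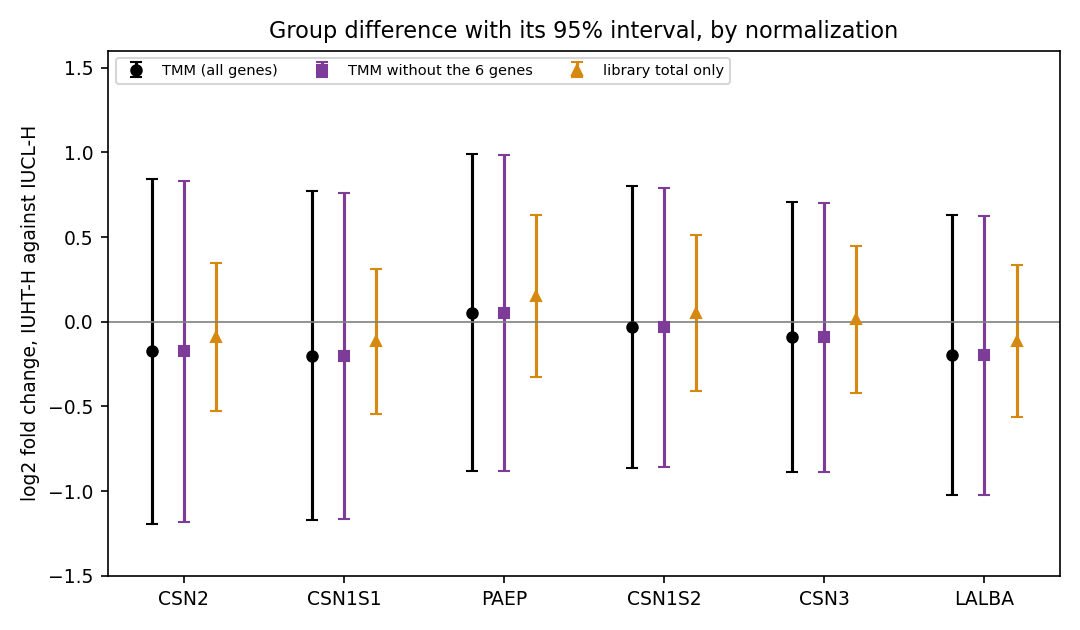
Log2 fold change of IUHT-H relative to IUCL-H (y axis) for each milk protein gene (x axis) with its 95% interval, under TMM scaling of all genes, TMM scaling without the 6 genes, and the library total only. Each interval includes 0, the first 2 scalings nearly coincide, and the library total gives shorter intervals and slightly higher values.

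Likeness of pattern to the members was measured for 5920 other genes with a mean of at least 10 CPM, as the SD over the 6 heifers of the log2 ratio of a gene to the summed members. Most of the summed counts are from CSN2 and CSN1S1, so this is mainly likeness to those genes. The median SD was 0.32. The gene most like the members was ENSBTAG00000016819, an abundant gene of 1514 CPM, with an SD of 0.056. It took 0.153%, 0.152% and 0.153% of the counts in IUCL-H 9202, 9214 and 9223 against 0.145%, 0.132% and 0.157% in IUHT-H 9196, 9203 and 9204. Its highest value was in IUHT-H 9204 and its lowest in 9203, as for the members together. The gene was picked for this likeness, so the match is no further evidence. ENSBTAG00000013981 came next with an SD of 0.06, and the other 3 of the 5 most alike genes had SDs of 0.068 to 0.074 at 12.2 to 27.8 CPM. Measured in the same way against the sum of the other 5, CSN2 and CSN1S1 had SDs of 0.069 and 0.071, and LALBA 0.1. CSN3 (0.13), PAEP and CSN1S2 (both 0.22) tracked the other members less closely, and 964 and 995 of the 5920 genes had an SD smaller than those of PAEP and CSN1S2.

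Of the 101 genes listed around milk protein synthesis, from prolactin signaling to lactose synthesis and secretion, only LCN2 could be matched to an identifier. LCN2 (ENSBTAG00000014149) encodes lipocalin 2, an antibacterial protein of the same protein family as beta-lactoglobulin. It had 10.2, 6.1 and 14.8 CPM in IUCL-H 9202, 9214 and 9223 against 24.8, 37.8 and 21.4 CPM in IUHT-H 9196, 9203 and 9204. The groups did not overlap. LCN2 was called, and it was higher in IUHT-H by 1.44 ± 0.33 on the log2 scale (standard error), where PAEP was at 0.053. Its adjusted p was 0.999 in edgeR's quasi-likelihood test and 0.011 in DESeq2, the lowest over the alternatives. CLDN3, a tight junction gene of epithelial cells, had 66.5, 86 and 94.1 CPM in IUCL-H against 72.2, 62.4 and 85.2 CPM in IUHT-H. The log2 fold change of CLDN3 was -0.17 (standard error 0.17), and its values overlapped between groups. In CPM it did not peak in IUHT-H 9204, where all members did, although by share of counts only PAEP and LALBA were highest there. JCHAIN, the joining chain of secreted immunoglobulins and a plasma cell marker, had 37.9, 36.7 and 69.6 CPM in IUCL-H against 142.4, 223.4 and 81 CPM in IUHT-H. JCHAIN was called and was higher in IUHT-H by 1.63 ± 0.39 on the log2 scale (standard error), with an adjusted p of 0.999 in edgeR's quasi-likelihood test and 0.0075 in DESeq2, the lowest over the alternatives. The call was lost without IUCL-H 9202, at 1.49, and without IUCL-H 9214, at 1.47. Both LCN2 and JCHAIN had their highest value in IUHT-H 9203, the heifer with the lowest share of milk protein counts. IUHT-H 9204, the heifer with the highest share, also lay above all IUCL-H in both genes. The part of other cells in the milk protein values was not tested. LCN2 and JCHAIN have a name here because the study listed them as changed in these heifers, so their changes are not independent evidence.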

How the data were processed

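RNA sequencing counts of 6 mammary biopsies (3 IUHT-H and 3 IUCL-H, grouped by the treatment label) were analysed; 1 further IUCL-H of the study was not analysed here. The authors checked the reads with FastQC, mapped them with Tophat (2.0.13) and deposited whole-number counts per Ensembl gene, not normalized. The paper names bosTau7 as the genome and the submitters' processing notes UMD3.1. HTSeq is listed in those notes, but its settings, the annotation and the use of strand are not given in the sources used here. Reads shared with near-identical copies may have been lost or split, so the level of PAEP, which has a pseudogene in cattle, is uncertain.

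Genes were kept with filterByExpr, scaled by TMM and tested with edgeR (4.0.16, R 4.3.3, glmQLFit and glmQLFTest, no covariates) over all genes, with Benjamini-Hochberg adjustment. The 95% intervals use the standard error from the F statistic and its degrees of freedom. Shares and ratios were compared by two-sided exact permutation tests (scipy 1.17.1) over 20 assignments, with adjustment within the 7 shares, 16 ratios or 6 parts of the sum. The pseudocount for SDs was 0.01 CPM. Scripts were tested on simulated data. Names came from the rule that lists the members and from the study's supplementary tables, of which 375 identifiers had a name. Named genes were the members, matched genes of fixed lists, and the genes most like the members, of which 2 are identified.

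Alternatives were other normalizations, filters and tests, DESeq2 (1.42.0) among them, and leaving out each heifer. The members and lists were chosen with earlier results of these data known. P-values set the difference between the groups against the spread between these heifers.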

Additional observations from a re-analysis of the deposited data

How the results depend on the processing

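No member was called in any fit. Scaling by the library total turned the log2 fold changes of CSN1S2 and CSN3 to 0.053 and 0.013. As the log2 ratio to the counts outside the 6 genes, the differences for CSN1S2 and CSN3 were -0.014 and -0.064, whereas their shares were higher in IUHT-H. That denominator leaves out the other members too, so it is not the complement of the share of 1 gene. The number of genes at P ≤ 0.01, 63 in the quasi-likelihood test, was 112 with the likelihood ratio test, 107 with the exact test and 124 with DESeq2, and 38 to 246 when a heifer was left out. Differences that kept their direction could still move by more than 1.5 times, such as the share of all 6 genes, from -5.13 to -0.253 percentage points. The results below changed direction at least once on leaving out single heifers. Log2 fold changes ranged from -0.28 to 0.11 for CSN1S2, -0.31 to 0.058 for CSN3 and -0.25 to 0.28 for PAEP. Differences in the log2 ratio to the counts outside the 6 genes ranged from -0.18 to 0.11, -0.22 to 0.0601 and -0.12 to 0.28 for the same genes. Differences in share ranged from -0.457 to 0.718 percentage points for CSN1S2 and -0.128 to 0.389 for CSN3, and as parts of the 6-gene sum from -0.454 to 1.51 and -0.0526 to 0.748. Log2 ratios ranged from -0.074 to 0.00102 for CSN1S1 to CSN2, -0.084 to 0.062 for CSN1S1 to LALBA, -0.025 to 0.0697 for CSN2 to LALBA, -0.18 to 0.17 for CSN1S2 to CSN3, -0.41 to 0.095 for CSN1S2 to PAEP and -0.0057 to 0.22 for CSN3 to LALBA. The cause of these changes was not tested. The difference in the part of CSN1S1 in the sum ranged from -1.9 to -1.05 percentage points on leaving out a heifer. It was -1.35 with CSN1S2 left out of the sum. Because the groups do not overlap on this scale, leaving out a heifer could not reverse it, so its kept direction is no support. A denominator without mitochondrial genes, counts per coding length and counts over the fixed lists were not run, because names and lengths were not used here. Counting error was small beside the spread between heifers, in which animal, biopsy site and library preparation cannot be told apart.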
